A study of Mus musculus with 3 samples.

Results

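The auditory cortex (AUD) was examined in 3 coronal brain sections profiled with 10x Visium, an array of barcoded spots that captures the RNA of the tissue lying on each spot. Its members were all spots that the authors' deposited annotation assigned to AUD, joined by barcode to the array grid of their own section. They numbered 577 of 8549 annotated spots, made up of 165 of 2881 spots (CON), 231 of 2828 (RES) and 181 of 2840 (SUS). The mice were male C57BL/6J animals aged 8 weeks. RES and SUS went through 10 days of chronic social defeat stress (CSDS), in which an aggressive CD-1 mouse attacks the animal each day, and were then divided into resilient and susceptible by a social interaction ratio above or below 1. CON met non-aggressive mice in place of aggressors. Brains were taken 1.5 h after the last exposure, and 1 section of the left hemisphere, 10 μm thick, came from 1 mouse per group. Every difference between CON, RES and SUS is therefore a difference between 3 sections, which cannot be told apart from a difference between 3 mice or 3 captures, and no p-value was computed.

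The auditory cortex receives sound information from the medial geniculate nucleus of the thalamus and sends output to the lateral amygdala, a route studied in learned fear of sounds. Like other isocortex it is layered, with few neuronal cell bodies in the outermost layer and a deep face that lies on the white matter. Mitochondrial transcripts encode subunits of the respiratory chain and are plentiful in neurons, ribosomal protein genes encode the core of the translation machinery, and haemoglobin transcripts come mainly from red blood cells in vessels. The annotation divided the Isocortex into AUD and 4 other areas, namely the retrosplenial (RSP), posterior parietal (PTL) and primary somatosensory (SSp) areas and the temporal association, entorhinal and perirhinal areas joined as one (TEP). Counts per gene were not analysed here, so the AUD label could not be checked against marker genes. The position of the spots is described below. The authors drew the areas partly from histology and an atlas, so position is no independent check of the label.

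In position, the AUD spots of each section made up a single patch of cortex. They formed 1 connected group per section. Of the listed places next to each AUD spot, counted once per adjoining spot, 93.4% were also AUD in CON (95% exact Clopper-Pearson interval 91.6 to 94.9), against 94.8% (93.4 to 95.9) for RES and 93.5% (91.9 to 94.9) for SUS. On the dorsal side they met SSp and on the ventral side TEP. By the same count SSp made up 24, 29 and 24 of these places for CON, RES and SUS, and TEP 15, 17 and 24. The remaining neighbours lay at the deep face and were annotated as fibre bundle (FB) or cerebral nuclei (CNU). They were 18 FB and 6 CNU places in CON, 24 places in RES that were all CNU, and 3 FB and 17 CNU places in SUS. Steps counted from FB or CNU thus start from differently annotated tissue in each section, and equal steps need not be equal cortical depth. AUD made up 22.8% of the Isocortex spots in CON (19.8 to 26.1), with 28.4% (25.3 to 31.6) for RES and 23.3% (20.4 to 26.5) for SUS. It held 6.94%, 10.2% and 7.55% of the section's unique molecular identifiers (UMIs, each counting 1 captured RNA molecule). The intervals of the Isocortex shares cover counting error within 1 section only. Those of the neighbour shares are a rough guide, since places recur and adjoining AUD spots are counted from both sides.

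**Figure D1:**
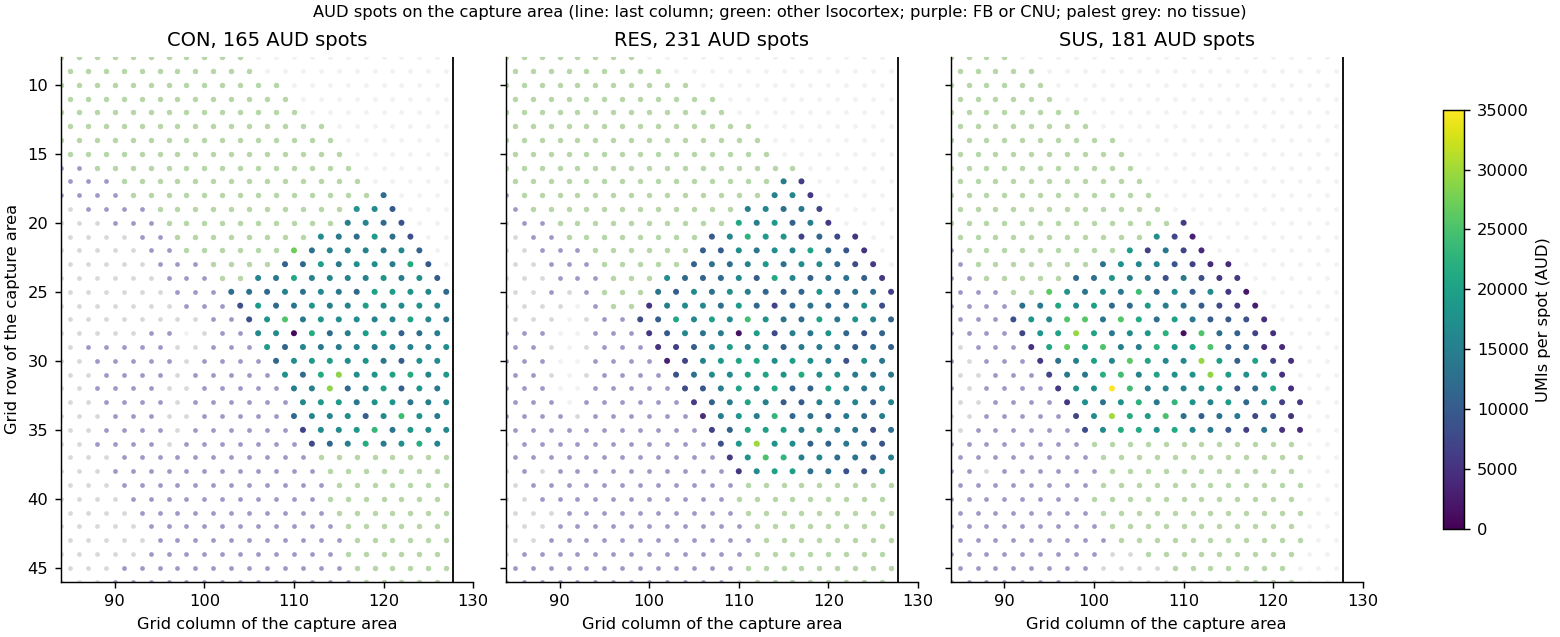
AUD spots at their row and column on the capture grid, coloured by UMIs per spot, with 1 panel per section. Other Isocortex spots are green, FB or CNU spots purple, other regions grey and places without tissue palest grey, and the line marks the end of the capture area: AUD runs into that line in CON and RES but stops short of it in SUS, and 1 dark spot lies inside AUD at the same place in each panel.

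The 3 sections did not capture the same stretch of AUD. The last column of the capture area cut through AUD on 13 of its 19 grid rows in CON and 15 of 22 in RES, and on 0 of 16 in SUS. No AUD row ran from the deep face to a place without tissue in CON or RES, while 10 rows did so in SUS, each 13 to 15 spots wide. The border of the capture area was at least as near as the tissue edge for 105 AUD spots in CON (63.6%, interval 55.8 to 71.0) and 129 in RES (55.8%, 49.2 to 62.4), against 0 of 181 in SUS, for which the exact interval reaches 2.02%. Counted in grid steps from the nearest FB or CNU spot, AUD reached step 13 (CON), step 16 (RES) or step 15 (SUS). Spots beyond step 10 made up 17.0%, 32.5% and 33.7% of the AUD spots of CON, RES and SUS. Bands of 2 steps held at least 20 AUD spots in all sections from step 1 to step 12. The inner range of steps 3 to 10, chosen after the data were seen, leaves out the spots next to both faces, held 113, 131 and 100 AUD spots, and is set beside the whole area where sections are compared.

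Median depth was highest in CON and lowest in RES, and the spread over AUD spots was widest in SUS. CON had a median of 15790 UMIs per spot (95% order-statistic interval 15500 to 16519), RES of 13993 (13229 to 14606) and SUS of 14767 (13657 to 16230). Single spots ran from 553 to 29013 UMIs for CON, from 1423 to 29755 for RES and from 1465 to 34958 for SUS, and overlapped over nearly their whole range. The upper quartile was 1.28 times the lower in CON, 1.58 times in RES and 2.19 times in SUS. Relative to CON, RES stood at 0.886 (0.801 to 0.942) and SUS at 0.935 (0.827 to 1.05), and only the interval of SUS included 1. In the inner range of steps 3 to 10 the medians were 16115, 14930 and 17529 UMIs, with ratios of 0.927 (0.845 to 1.04) in RES and 1.09 (0.948 to 1.22) in SUS. Over steps 1 to 12 the ratios were 0.911 for RES (0.831 to 0.962) and 1.01 for SUS (0.891 to 1.11). By band, SUS was at 0.868 of CON at steps 1 and 2, between 1.004 and 1.29 from step 3 to step 10, and at 0.704 at steps 11 and 12. The side of 1 on which the SUS ratio lay thus depended on the steps included, and its interval included 1 in each of these 3 ranges. In spots of this size, fewer cells and less RNA per cell cannot be told apart.

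Detected genes followed UMIs. AUD spots of CON held a median of 5368 genes (5222 to 5456), those of RES 4965 (4807 to 5052) and those of SUS 5095 (4867 to 5285). This put RES at 0.925 of CON (0.881 to 0.967) and SUS at 0.949 (0.892 to 1.01), and in the inner range these values were 0.945 (0.906 to 0.995) and 1.02 (0.959 to 1.08). Within each section the rank order of AUD spots by genes nearly matched their order by UMIs, with Spearman's rho of 0.98, 0.99 and 0.996 over the 165, 231 and 181 spots of CON, RES and SUS. The spots share a section and a depth, so this is a description and has no p-value.

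Genes were also compared at a matched number of UMIs, by setting each spot against the 10 AUD spots of CON nearest to it in UMIs. CON had few shallow AUD spots, with 8 between 5000 and 10000 UMIs against 40 in RES and 35 in SUS. For 34 RES and 45 SUS spots the nearest CON spots were therefore deeper by more than 5%, and the ratio of genes was below 1 in each of them, as a deeper reference alone would give. Where the match lay within 5%, which 194 RES and 123 SUS spots met, the median ratio was 0.989 for RES (0.981 to 0.993) and 0.987 for SUS (0.983 to 0.991), and 135 and 92 of these spots were below 1. Over all spots it was 0.981 and 0.982, values that include the unmatched shallow spots. The other Isocortex areas, matched within 5% in the same way, gave 0.980 for RES (0.977 to 0.983) and 0.987 for SUS (0.985 to 0.989). A line of genes on UMIs gave 0.999 for RES, so the size of this small difference depended on how depth was matched. Between 10000 and 15000 UMIs the median was 4799 genes in CON (56 spots), 4709 in RES (97 spots) and 4793 in SUS (41 spots). Their intervals of 4692 to 4997, 4559 to 4807 and 4559 to 4898 overlapped. Median UMIs inside this window were 13341.5, 12723 and 13202, so it did not fully match depth.

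**Figure D2:**
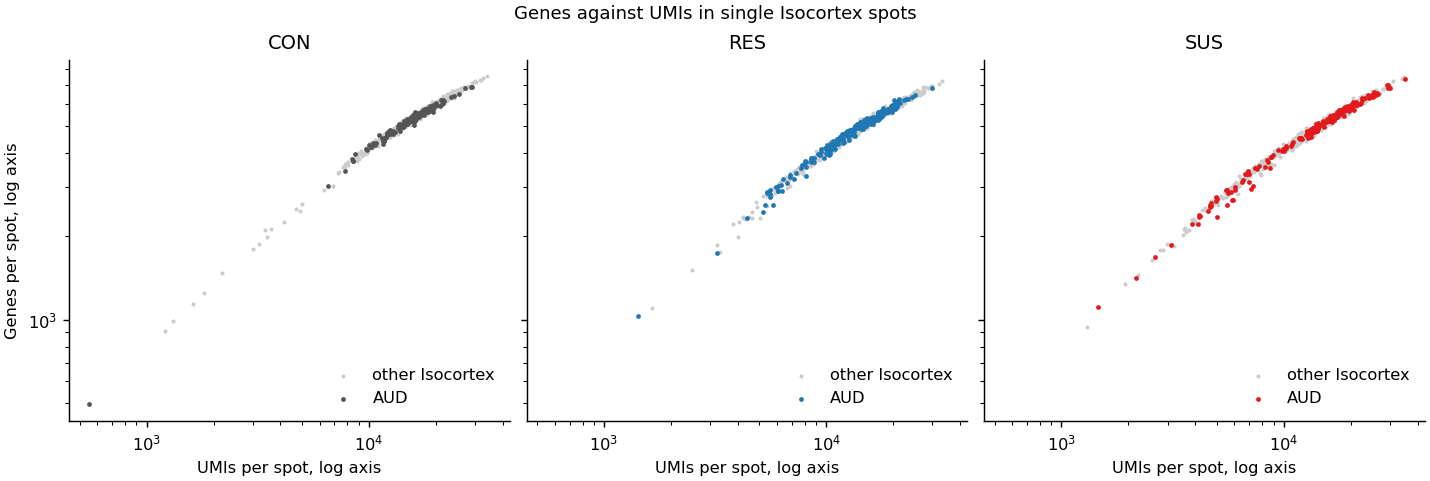
Genes per spot against UMIs per spot, both on log axes, for AUD spots (coloured) and the other Isocortex spots (light grey), with 1 panel per section. AUD spots lie on the same curve as the other areas, and SUS has more AUD spots at low UMIs than CON, apart from the single CON spot at 553 UMIs and 495 genes.

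The mitochondrial share of AUD transcripts was highest in CON and lowest in SUS. CON had a median of 10.3% (9.86 to 10.7), RES of 7.94% (7.65 to 8.27) and SUS of 6.68% (6.39 to 7.21), and these intervals did not overlap. The middle spots of CON lay between quartiles of 8.94% and 11.3%, those of RES between 6.87% and 9.13%, and those of SUS between 5.90% and 8.03%. RES was thus at 0.774 of CON (0.718 to 0.839), SUS at 0.651 of CON (0.599 to 0.731) and SUS at 0.841 of RES. The same order was found in the inner range, where the medians were 10.3%, 7.45% and 6.54%. Between RES and SUS the order did not hold in every band. The medians were nearly level at steps 3 and 4, at 6.43% and 6.40%. RES was the lower at steps 5 and 6, at 6.89% against 7.46%, and at steps 13 and 14, at 8.09% against 13.0%. At steps 15 and 16 it was 16.6% against 20.1%, the latter over 4 spots. RES was the higher in the other bands. Within 2 steps of the tissue edge RES was also the lower of the pair, at 10.9% against 13.0%. Over 6 bands of 2 grid steps from the deep face that held at least 20 AUD spots in both sections compared, the SUS median was below that of CON in 6, with ratios of 0.514 to 0.878. The RES median was below that of CON in 5, and the band nearest the deep face had a ratio of 1.01. The order CON, RES, SUS was not special to AUD. The other Isocortex spots pooled stood at 0.843 of CON (0.804 to 0.888) for RES and at 0.628 (0.601 to 0.672) for SUS. The RES ratio was lower in AUD than in these areas, with intervals that overlapped, and the SUS ratio was slightly higher in AUD.

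**Figure D3:**
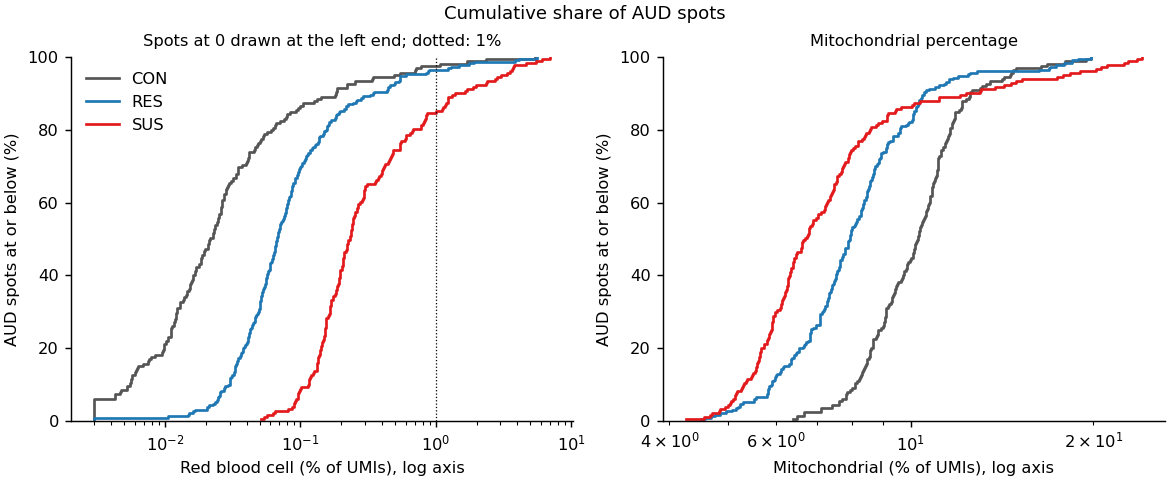
Cumulative share of AUD spots (%) by red blood cell percentage (left) and mitochondrial percentage (right), both on log axes, with 1 line per section. The red blood cell lines are ordered CON, RES, SUS from left to right, whereas the mitochondrial lines run in the opposite order until they cross at the high end.

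Ribosomal protein transcripts differed little between sections. Their AUD medians were 7.03% for CON (6.93 to 7.12), 6.87% for RES (6.78 to 6.98) and 7.16% for SUS (6.997 to 7.31). The ratios to CON were 0.977 (0.953 to 1.01) and 1.02 (0.983 to 1.05), both with intervals that included 1, and the inner range gave 0.985 (0.954 to 1.03) and 1.02 (0.990 to 1.05). SUS was at 1.04 of RES, and the intervals of these 2 medians did not overlap. All these departures were smaller than the spread over the AUD spots of CON alone, whose quartiles were 6.72% and 7.38%. That is the spread of single spots and not the error of a median. By band the ratios to CON ran from 0.920 to 1.10 in RES and from 0.965 to 1.10 in SUS, highest at steps 1 and 2 in both.

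Red blood cell transcripts showed the widest range between sections. CON had an AUD median of 0.0217% (0.0171 to 0.0260), RES of 0.0669% (0.0612 to 0.0770) and SUS of 0.234% (0.204 to 0.262). RES was 3.08 times CON (2.36 to 4.51), SUS was 10.8 times CON (7.87 to 15.4) and SUS was 3.49 times RES. The CON median was so low that it stands for few transcripts per spot, and every ratio to CON rests on it. With means over AUD spots in place of medians the ratios were smaller, at 1.66 for RES and 5.25 for SUS. In the inner range the ratios were 2.80 (1.99 to 4.28) and 9.86 (6.92 to 15.2). All 6 depth bands were above CON in both sections, by 2.03 to 4.05 times in RES and 4.49 to 12.8 times in SUS. No red blood cell transcript was found in 10 AUD spots of CON (6.06%, 2.94 to 10.9), 2 of RES (0.866%, 0.105 to 3.09) and 0 of the 181 of SUS, for which the exact interval reaches 2.02%.

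The SUS section also held more AUD spots with a large red blood cell share. Above 1% lay 4 AUD spots of CON (2.42%, 0.664 to 6.09), 8 of RES (3.46%, 1.51 to 6.71) and 28 of SUS (15.5%, 10.5 to 21.6). The highest single spot was similar in the 3 sections, at 5.44%, 5.57% and 6.96%. Such spots did not gather in one place. Of the listed places next to them, 0 of 23 in CON, 0 of 43 in RES and 24 of 149 in SUS were themselves above 1%, and the SUS share of 16.1% was close to the 15.1% found over all neighbours of AUD spots. Without the spots above 1% the mean over AUD spots was 0.0577%, 0.112% and 0.266% for CON, RES and SUS, in the same order as before.

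Depth within AUD changed from the FB or CNU face outwards, and differently in each section. In CON the median held between 15009.5 and 16896 UMIs in the first 6 bands and was 9930 in the outermost, which had 8 spots. In SUS it was 13026.5 UMIs at steps 1 and 2, 20530 at steps 3 and 4, and then 17252, 17307.5, 16024, 11301.5 and 5620 outwards to steps 13 and 14. RES was low at both faces, with 8101 UMIs at steps 1 and 2 (25 spots) and 6852.5 at steps 15 and 16 (16 spots), and lay between 13220 and 17077 in between. The last SUS band, with 4 spots, was at 4668.5 UMIs. Spearman's rho between UMIs and steps from the deep face was −0.03 (CON), −0.12 (RES) and −0.46 (SUS). SUS, the section with complete rows from the deep face to the tissue edge, thus had the steepest profile.

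The composition of the transcripts also changed with depth in the cortex. Ribosomal protein transcripts were highest at steps 1 and 2, where their medians were 7.97%, 8.80% and 8.75% for CON, RES and SUS, and fell outwards to lows of 6.62%, 6.19% and 6.49% before the outermost bands. Mitochondrial transcripts ran differently in each section. In CON their median rose outwards, from 8.39% at steps 1 and 2 to 11.4% at steps 11 and 12 and 16.6% in the outermost 8 spots, with rho of 0.66 over 165 spots. RES went from 8.46% at steps 1 and 2 to 6.43% at steps 3 and 4, stayed at or below 8.79% up to step 14 and was at 16.6% at steps 15 and 16, with rho of 0.31. In SUS the share went from 7.37% at steps 1 and 2 through 6.40%, 7.46%, 7.004% and 6.15% to 5.87% at steps 11 and 12, and was 13.0% at steps 13 and 14, so that rho was only 0.11. Red blood cell transcripts had rho of 0.30, 0.29 and 0.26.

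**Figure D4:**
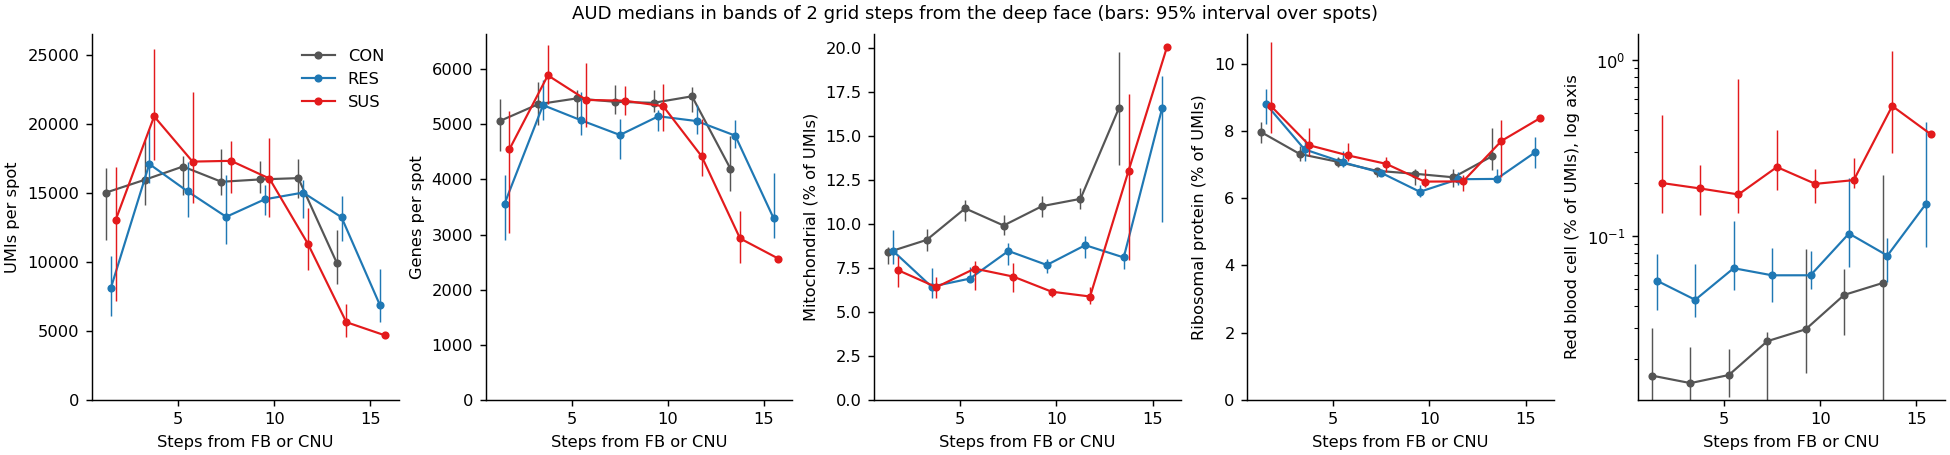
Medians of AUD spots in bands of 2 grid steps from the nearest FB or CNU spot, for UMIs, genes and the mitochondrial, ribosomal protein and red blood cell percentages (log axis for the last), with 1 line per section. Bars are 95% intervals over spots, bars that reach 0 run off the log axis, and the last SUS band of 4 spots has no bar; UMIs fall and the mitochondrial share rises in the outermost bands of every section.

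At the tissue edge AUD spots were poorer in UMIs and richer in mitochondrial transcripts. Spots 1 or 2 grid steps from a place without tissue had a median of 12223 UMIs for CON (16 spots), 7911 for RES (20 spots) and 5530 for SUS (34 spots), against 15960, 14385 and 16230 in spots further in. Their ratio was 0.766 for CON (0.591 to 1.06), 0.550 for RES (0.406 to 0.905) and 0.341 for SUS (0.269 to 0.450). The difference was largest in SUS, whose interval did not overlap that of CON. The sections are not alike here, as the capture border was at least as near as the edge for 105 CON and 129 RES spots. The tissue edge of those spots may lie beyond the border, closer than counted. Genes followed with ratios of 0.884, 0.733 and 0.546. The mitochondrial share was 13.99% at the edge of CON against 10.1% further in, a ratio of 1.38 (1.08 to 1.74), and the ratio was 1.40 (1.10 to 2.31) in RES and 2.03 (1.25 to 2.79) in SUS. The ribosomal protein ratio was 0.997 for CON (0.945 to 1.06), 1.04 for RES (0.986 to 1.12) and 1.09 for SUS (1.004 to 1.199), whose interval lay just above 1, and the red blood cell ratio was 1.65 (0.606 to 10.8), 1.74 (0.907 to 5.01) and 2.24 (1.19 to 5.52). The other Isocortex areas had edges of the same kind, with UMI ratios of 0.902, 0.602 and 0.416 and mitochondrial ratios of 1.36, 1.43 and 1.68.

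No AUD row of SUS met the capture border, and SUS had 34 AUD spots near the edge against 16 in CON. Further than 2 steps from the edge the medians were 15960 UMIs in CON and 16230 in SUS, and the mitochondrial share was 10.1% and 6.41%. In these spots the UMI medians of CON and SUS were thus close to each other, and their mitochondrial medians were as far apart as over all AUD spots. The CON spots include many beside the capture border, whose tissue edge may lie closer than counted.

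Compared with the rest of the Isocortex of the same section, AUD was close in depth to the other areas pooled. Its median UMIs divided by that of the other 4 areas pooled was 0.947 for CON (0.908 to 1.01), 0.942 for RES (0.867 to 1.01) and 0.999 for SUS (0.887 to 1.17), and the 3 intervals included 1. Among the 5 areas AUD ranked 4, 4 and 3 from the highest. Single areas differed from it. AUD was below PTL in CON, at 0.899 (0.825 to 0.984), and below SSp in RES, at 0.908 (0.823 to 0.988), while its intervals against RSP included 1 in all sections. Against TEP, its ventral neighbour, the UMI ratio was 0.998 for CON (0.910 to 1.11), 1.32 for RES (1.13 to 1.50) and 1.54 for SUS (1.29 to 1.80).

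AUD was lower in mitochondrial transcripts than the other areas pooled, with ratios of 0.920 for CON (0.867 to 0.982), 0.845 for RES (0.795 to 0.905) and 0.953 for SUS (0.876 to 1.05), of which the last included 1. The areas differed among themselves. AUD was far below RSP, with ratios of 0.776, 0.639 and 0.625. Against PTL its ratio was 0.974 for CON (0.903 to 1.04), 0.903 for RES (0.839 to 0.968) and 1.17 for SUS (1.04 to 1.31), and only in SUS was AUD the higher of the pair. Its share lay between those of its neighbours in every section, below SSp, with ratios of 0.874, 0.836 and 0.924, and above TEP, with ratios of 1.52, 1.42 and 1.26. The SUS ratio to SSp had an interval of 0.852 to 1.03, which included 1. The gradient continued inside AUD in CON and RES. Spots nearer to TEP had 0.853 times the mitochondrial share of spots nearer to SSp in CON (0.772 to 0.946) and 0.838 times in RES (0.766 to 0.930), whereas the ratio was 1.01 in SUS (0.844 to 1.18). Ribosomal protein transcripts of AUD were at 1.01, 0.991 and 1.02 of the other areas, with intervals that included 1.

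The red blood cell share of AUD relative to its surroundings turned over between sections. AUD was 1.57 times the other areas pooled in CON (1.13 to 2.09), 1.09 times for RES (0.958 to 1.34) and 0.776 times for SUS (0.608 to 0.940). The CON medians behind its ratio were 0.0217% in AUD and 0.0138% in the other areas, which is few transcripts per spot in both. The RES ratio was below 1 with means, at 0.780, and at steps 3 to 10, at 0.980, whereas those of CON and SUS kept their side of 1 in both. AUD ranked 2 of the 5 areas in CON and RES and 5 in SUS. Area by area, the CON ratio was 1.73 to PTL (1.16 to 2.48) and 1.97 to SSp (1.31 to 2.80). It was 1.12 to RSP (0.742 to 1.88) and 0.951 to TEP (0.557 to 1.66). In SUS only the interval against SSp excluded 1, at 0.733 (0.549 to 0.980). Seen from the side of the groups, the SUS to CON ratio of 10.8 in AUD was below that of the other 4 areas, at 16.7 in RSP, 22.9 in PTL, 29.0 in SSp and 12.3 in TEP. The intervals of PTL (16.4 to 35.0) and SSp (20.6 to 40.1) did not overlap that of AUD, whereas those of RSP (10.9 to 38.9) and TEP (7.88 to 22.8) did. Pooled, those areas had 21.8 (18.4 to 27.0), an interval that did not overlap that of AUD. In RES the AUD ratio of 3.08 was also below the pooled 4.43 (3.79 to 5.14), but these intervals overlapped, and TEP was lower at 2.34. With 1 section per group the difference between these ratios was not tested.

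**Figure D5:**
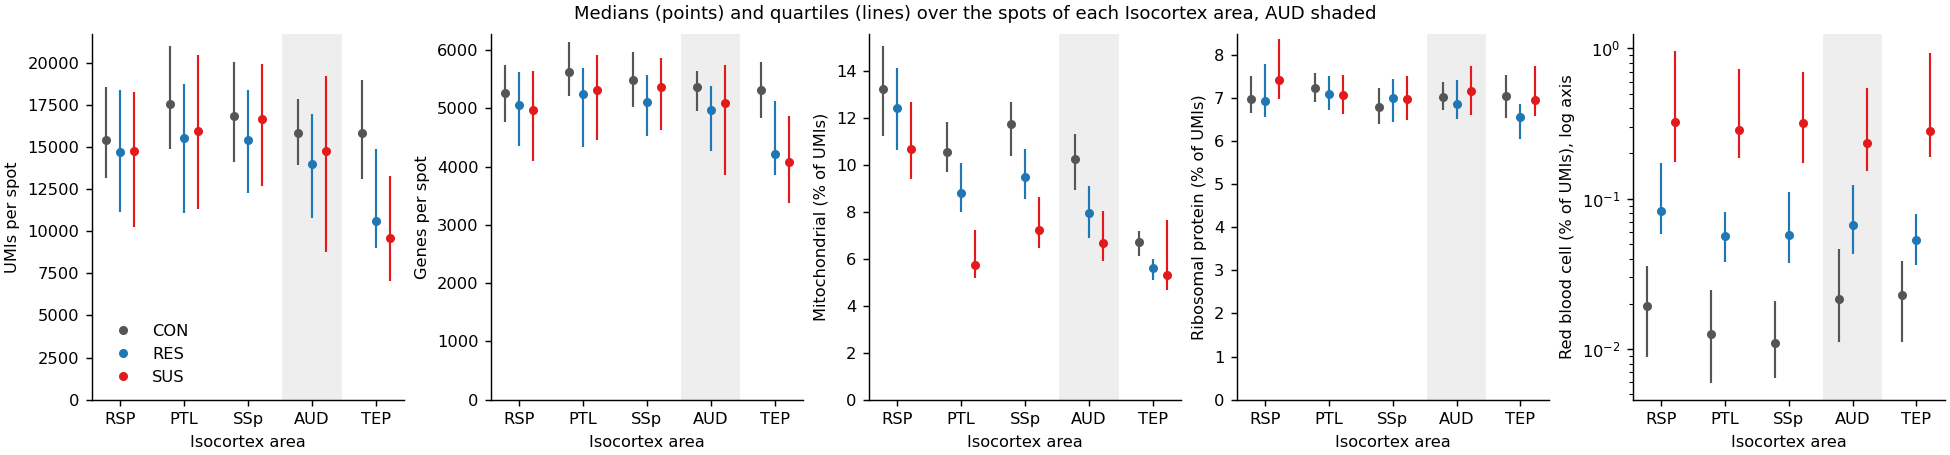
Medians (points) and quartiles (lines) over the spots of each Isocortex area for UMIs, genes and the mitochondrial, ribosomal protein and red blood cell percentages (log axis for the last), with CON, RES and SUS side by side and AUD shaded. The mitochondrial medians step down from SSp through AUD to TEP in each section, and the red blood cell medians of AUD are 0.0217%, 0.0669% and 0.234%.

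The measures moved together differently in each section. Spots with more UMIs had a lower mitochondrial share, with rho of −0.23, −0.48 and −0.50 for CON, RES and SUS. The mitochondrial and ribosomal protein shares ran against each other in CON, with rho of −0.29, and together in RES and SUS, with rho of 0.33 and 0.59. These correlations are over neighbouring spots of a single section and are given as descriptions.

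A single array place inside AUD was almost empty in all 3 sections. It lay at grid row 28 and column 110, with all 6 neighbouring places listed, and its spatial barcode, shown because it identifies the place on arrays of this layout, was the same in the 3 sections.
Barcode of the low place: gtcgtgtctggtcatc
It held 553 UMIs (CON), 1423 (RES) and 1465 (SUS), the lowest of all AUD spots in each section. The medians of its 6 neighbours were 16236, 18088.5 and 20249 UMIs, so it was 29.4, 12.7 and 13.8 times below them. No other AUD spot with at least 4 listed neighbours was more than 4 times below its neighbours, among the 158, 223 and 176 spots compared. Over the whole array, 2 of the 2245 places listed in all sections with at least 4 listed neighbours were this low in all of them. The next lowest AUD spots had 6564, 3227 and 2156 UMIs. Without the low place the AUD medians were 15870.5, 14026.5 and 14865.5 UMIs.

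Other AUD places resembled each other across sections only weakly. Taking each spot's UMIs relative to the median of its neighbours, places annotated as AUD in a pair of sections had rho of 0.24 for CON and RES, 0.32 for CON and SUS and 0.22 for RES and SUS, and 0.21, 0.30 and 0.20 without the low place. These pairs held 162, 95 and 133 shared AUD places, and 95 places were annotated as AUD in all 3 sections.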

How the data were processed

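The deposited table of spots gives, per barcode, the section, the annotated area, UMI counts and gene counts, which are raw whole-number counts made by the authors, and the percent of transcripts from red blood cell, mitochondrial and ribosomal protein genes, also computed by the authors. The submitters' processing notes name Space Ranger 1.0.0, bcl2fastq and cutadapt, and the study's methods name the ST Pipeline, Seurat and a minimum of 200 UMIs per spot. Areas were assigned by the authors from histology, an atlas and marker genes. AUD depth was 553 to 34958 UMIs per spot. Percentages multiplied by the deposited UMIs gave whole numbers (within 0.001) in 0.347% of AUD spots for mitochondrial, 0.173% for ribosomal protein and 0.177% for red blood cell transcripts, so they were not made from those totals and were compared only as percentages.

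Barcodes were joined to the deposited tissue position lists. Distances were counted in steps on the hexagonal grid, where a place has 6 neighbours. The tissue edge was the nearest place marked as not covered by tissue, and near the edge meant up to 2 steps. Medians carry 95% order-statistic intervals over spots, ratios of medians carry intervals from the bounds of both medians, and shares carry exact Clopper-Pearson intervals. All cover at most the spread or counting error within 1 section, and those of neighbour shares take recurring places as independent. Genes were compared at matched UMIs through the 10 nearest spots, and again with only spots whose matches lay within 5% in mean UMIs, a limit set after the data were seen. With 1 section per group no test was possible. No genes were named, since only totals per spot were used. The area and the choices of range and threshold were made with earlier results of these data known, and the inner range of steps 3 to 10 was chosen after the data were seen. Scripts (Python 3.11.15, numpy 2.4.6, pandas 2.3.3, scipy 1.17.1) were tested on simulated data. The alternatives were means, other distances and edges, other reference areas and other matching of depth.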

Additional observations from a re-analysis of the deposited data

Results flagged for a closer look

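The red blood cell share of AUD against the other 4 Isocortex areas lay on opposite sides of 1 in different sections. It was 1.57 in CON (95% interval 1.13 to 2.09) and 0.776 in SUS (0.608 to 0.940), with neither interval including 1, and 1.09 in RES (0.958 to 1.34), where it was 0.780 with means and 0.980 at steps 3 to 10. The CON ratio rests on few transcripts per spot, with medians of 0.0217% and 0.0138%. Area by area, the CON intervals against RSP and TEP included 1, and in SUS only the interval against SSp did not. The difference between the sections was not tested, because each group is 1 section.

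The number of genes at matched UMIs, against the other Isocortex areas of the same section, did the same on a far smaller scale. The ratio was 1.005 for RES (1.001 to 1.013) and 0.996 for SUS (0.992 to 0.999), and it was 1 for CON (0.997 to 1.004). AUD spots below 1 numbered 99 of 231 in RES and 108 of 181 in SUS. This difference was not tested either, and its direction depended on how depth was matched.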

How the results depend on the processing

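The 60 values of AUD were recomputed 337 times under other settings. Of the recomputed values, 297 stayed within the stated interval or, for numbers of sections and of spots, within 1.5 times. Another 35 moved beyond these limits, and 5 changed side of 1 where the interval had excluded 1. A change from 3 sections to 2 counted as within 1.5 times. Of the 297, 15 nonetheless lay on the other side of 1. Among them was the SUS ratio of UMIs to CON, at 1.01 with only spots that had 6 AUD neighbours, 1.02 at 3 or more steps from the edge, 1.01 at steps 1 to 12 and 1.02 when weighted to the CON spread over steps, against 0.935. Dividing each ratio to CON by that of the other Isocortex areas, which removes what AUD shared with its surroundings, gave UMIs 0.995 in RES and 1.05 in SUS, genes 0.997 and 1.02, and mitochondrial share 0.918 and 1.04, the last now above 1. The red blood cell ratio then fell below 1, to 0.696 and 0.493. Means in place of medians gave a mitochondrial SUS ratio of 0.765 and red blood cell ratios of 1.66 and 5.25. Steps 3 to 10, chosen after seeing the data, gave SUS ratios of 1.09 for UMIs, 1.02 for genes and 0.988 for genes at matched UMIs, the last of which was 0.999 in SUS between 10000 and 15000 UMIs and 0.999 in RES with a fitted line. Keeping only spots matched within 5% in UMIs, also chosen after seeing the data, gave 0.989 in RES and 0.987 in SUS. In that UMI window the ratio of genes against the other areas turned over, to 0.997 in RES and 1.03 in SUS, and AUD was lower in 2 sections in place of 1. AUD was below the other areas in UMIs in 2 sections in place of 3 with the areas weighted equally, against SSp and TEP alone, weighted by distance from the edge or at steps 3 to 10, where the SUS ratio of 0.999 became 1.04, 1.05, 1.03 and 1.15. It was below them in genes in 1 section with the areas weighted equally, in place of 2. It was below them in ribosomal protein share in 0 sections against SSp and TEP alone or at steps 3 to 10, and in 2 when weighted by distance from the edge, in place of 1. It was below them in red blood cell share in 2 sections with means or at steps 3 to 10, in place of 1. The ribosomal protein share was lower near the edge in 0 sections when near meant 1 step, and in 2 when only spots nearer to the tissue edge than to the capture border were used (chosen after seeing the data), in place of 1. Counting 18 places around each spot, 89.4%, 91.5% and 89.6% of neighbours were AUD. Beyond these constructions the cause was not tested. No paired analysis was possible because each group is 1 section and its replicate number is only a name. The other settings added after seeing the data were steps 1 to 12, a weighting to the CON spread over steps and leaving out the low place. Depth limits the single spots at low UMIs, and the capture border limits the outer bands of CON and RES.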
